A study of Mus musculus with 9 samples.

Results

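The nuclear genes for the proteins of the mitochondrial ribosome, named Mrpl for the large and Mrps for the small subunit, were followed in mouse embryonic stem cells (ESCs) with and without a label of KLF2 and KLF4 loss. They were taken as all protein-coding rows of the count table whose symbol begins with Mrpl or Mrps and a digit. This gave 78 genes, 49 Mrpl and 29 Mrps, of the 52550 rows, on 17 chromosomes. All 9 libraries came from the V6.5 line, an established mouse ESC line, grown with Lif and the GSK and MEK inhibitors known as 2i, in medium with 15% serum. The 4 wild-type (WT) libraries and the 5 labelled KLF2/KLF4 double knockout (DKO) shared that treatment and differed in the genotype label alone. The alleles and the number of clones are not given in the labels, which also do not say whether replicates were separate cultures. The p-values therefore speak for the spread among these 9 libraries alone, and that spread can be technical.

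The mitochondrial ribosome is made in the organelle from rRNAs copied from mitochondrial DNA and from proteins that are all encoded in the nucleus, made in the cytosol and imported. It translates the few membrane proteins of the respiratory chain and ATP synthase that mitochondrial DNA still encodes. Some of its proteins descend from bacterial ribosomal proteins, and others exist only in mitochondrial ribosomes. Naive ESCs are known to use both respiration and glycolysis.

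Libraries held 6035642 to 7098530 counts, so that 3 counts in a library, taken as the floor, corresponded to 0.423 to 0.497 CPM, the usual count scaled to library size. This floor covers counting error only. Each read of this 3' kit stands for about 1 transcript end, so levels were compared between genes in CPM, scaled by trimmed mean of M values (TMM), without a length term. Of 8 ESC markers, all were tested and 5 were higher and 2 lower in the DKO libraries, and 10 feeder fibroblast markers summed to 1.48 to 4.69 CPM in all libraries, with Col6a1 and Lum at 0 counts. Counts on both targeted genes were higher, not lower, in the DKO libraries, which by itself neither bears out nor contradicts the label. Klf2 had 460 ± 9.87 CPM (SD, n = 4) in the WT and 615 ± 19.0 CPM (n = 5) in the DKO libraries, a log2 difference of 0.42 ± 0.04 (SE) with an edgeR adjusted p of 6.21e-10. Klf4 had 848 ± 49.1 and 1595 ± 140 CPM, a log2 difference of 0.91 ± 0.06 with an edgeR adjusted p of 8.64e-14. Which part of either gene was deleted is not given, and a 3' tag outside a deleted part checks nothing. DKO therefore means the library labelled DKO throughout, and every direction below is that of the label.

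Most genes of the mitochondrial ribosome were expressed well above the floor in these cells and differed little between the groups. Tested members lay between 2.15 CPM (Mrpl23) and 374 CPM (Mrpl12), with a median of 72.3 CPM, and 73 of the 75 tested reached 10 CPM or more. By edgeR's quasi-likelihood test at an adjusted p under 0.05, 23 of the 75 were called, which is 30.7%, against 47.8% of all 11893 genes tested. Higher in the DKO libraries were 9 of 75 (12%), where 23.9% of all genes were, and lower were 14 of 75 (18.7%), where 24% of all genes were. At an adjusted p under 0.05 and a change of at least 1.5-fold, 0 of 75 members were called, against 20.9% of all genes. By edgeR 25 members had an unadjusted p under 0.05, of which 1, Mrpl23, was past 1.5-fold, and DESeq2 and limma-voom also gave 0. Leaving out WT 4 or DKO 2 brought Mrpl23 to a call and that count to 1, with adjusted p-values of 0.0273 and 0.0101.

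The sizes were narrow. The median log2 difference of the 75 was -0.03, with quartiles of -0.13 and 0.09, where all genes had a median of 0.01 and quartiles of -0.25 and 0.27. Mrpl51 had the largest called rise, 1.43-fold, and Mrps15 the largest called fall, by 29%. Of the 52 members not called, 51 lay within 0.25 of 0 on the log2 scale, and Mrpl23 was the exception. The median standard error of a member's log2 difference was 0.07, against 0.11 for all genes. Among the 3950 genes tested with levels between 28.7 and 150 CPM, the members' 10th and 90th percentiles, 53.7% were called, against 20 of 59 members (33.9%). Replicates of the members varied about as much as those of other genes. Over all 75 members the median coefficient of variation was 5.82% in WT and 7.13% in DKO libraries, beside 6.48% and 7.46% for those 3950 genes.

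**Figure D1:**
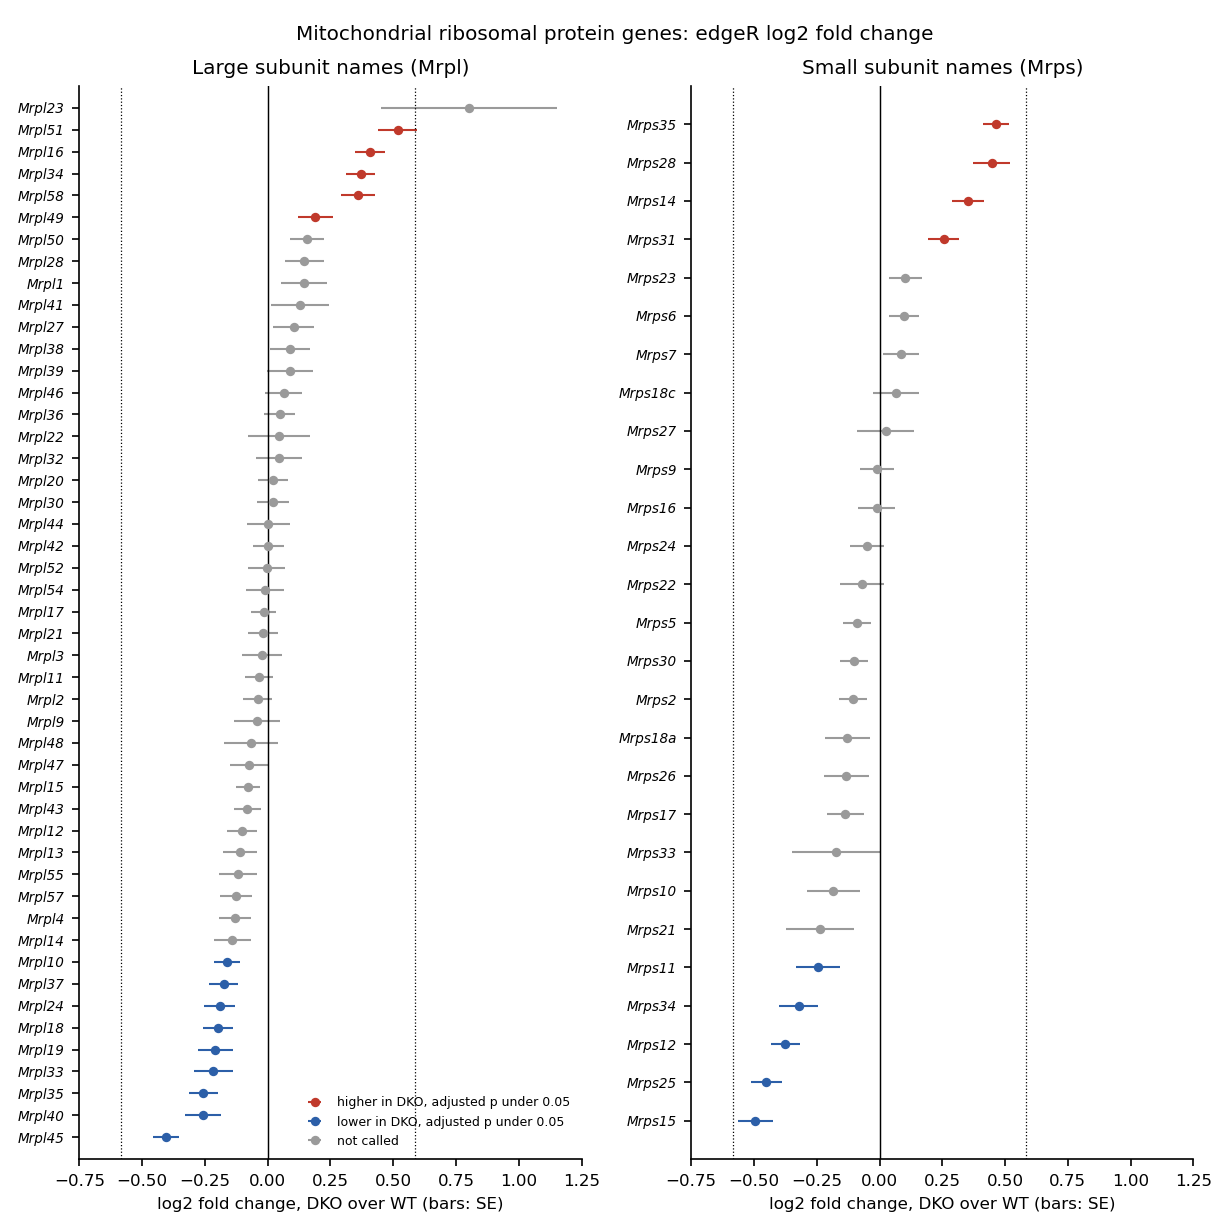
Log2 fold change of each tested Mrpl (48, left) and Mrps gene (27, right), DKO over WT, with bars for the standard error from edgeR; dotted lines mark 1.5-fold. Red points (9) were called higher, blue points (14) lower and grey points (52) were not called; Mrpl23, the member with the lowest level, has the widest bar.

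As one sum, the family's share of each transcriptome overlapped between the groups. The 78 members held 0.661%, 0.673%, 0.672% and 0.662% of the reads of WT 1, 2, 3 and 4, in that order. For DKO 1, 2, 3, 4 and 5 the shares were 0.648%, 0.638%, 0.681%, 0.654% and 0.641%. DKO 3 was the highest of all 9 libraries and the other 4 DKO libraries lay below every WT library. The means were 0.667% ± 0.00639 (SD, n = 4) and 0.652% ± 0.0171 (SD, n = 5), so the groups overlapped. In these bulk libraries a smaller share of cells with a transcript and less of it per cell cannot be told apart. Mrpl genes had a median log2 difference of -0.02, with 5 of 48 higher and 9 lower, and Mrps genes -0.09, with 4 of 27 higher and 5 lower. Members with a bacterial homologue had 4 of 47 higher and 9 lower, a median of -0.04, and those without one had 5 of 28 higher and 5 lower, a median of -0.0007. Neither the subunit nor the ancestry held the called genes to one direction.

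Promoter sequences were examined because the genes of this family are scattered over chromosomes, and NRF1, the ETS factor GABP and YY1 are known regulators of nuclear genes for mitochondria. RefSeq windows on GRCm38.p6, from 250 bases before to 50 bases after the annotated start, were given for 69 of the 78 members. Both strands were searched for GCATGCGC (the core of the NRF1 motif), CCGGAAGT (ETS), AAGATGGCG (YY1) and GGGTGTGG (KLF), of which none contains another. The NRF1 core was in the windows of 8 of 69 members (11.6%), 6.58% of the tested genes and 3.05% of all genes with a window. ETS letters were in 12 (17.4%), against 9.88% and 4.31%. YY1 letters were in 8 (11.6%), against 3.94% and 1.64%. KLF letters were in 1 (1.4%), Mrps33, against 4.35% and 4.09%. Any of the 4 was in 27 members (39.1%) and in 22.51% of the tested genes. A match is a description of letters, not a bound site.

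Of the called members with a window, 2 of 12 lower and 0 of 7 higher ones held the NRF1 core, 2 of 12 and 1 of 7 the ETS letters, and 3 of 12 and 0 of 7 the YY1 letters. These counts are small. The windows of 4 called members are shown, with the matches in capitals. Mrpl33, Mrpl35 and Mrpl37 fell and Mrpl51, the only higher member with any of the letters, rose. They are examples and do not speak for a link between letters and direction. In Mrpl33 the NRF1 core, read on the other strand, starts 12 bases before the start and the ETS letters 3 bases before it. In Mrpl35 and Mrpl37 the YY1 letters stand 24 and 27 bases after the start, and in Mrpl51 the ETS letters stand 90 bases before it.
Mrpl33, chr5:31613701-31614000, plus strand: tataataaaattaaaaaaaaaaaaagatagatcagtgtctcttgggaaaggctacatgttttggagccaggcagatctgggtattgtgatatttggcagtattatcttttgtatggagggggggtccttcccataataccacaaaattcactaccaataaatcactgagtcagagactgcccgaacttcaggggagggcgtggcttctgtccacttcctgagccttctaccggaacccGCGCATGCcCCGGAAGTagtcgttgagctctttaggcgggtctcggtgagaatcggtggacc
Mrpl35, chr6:71823735-71824034, minus strand: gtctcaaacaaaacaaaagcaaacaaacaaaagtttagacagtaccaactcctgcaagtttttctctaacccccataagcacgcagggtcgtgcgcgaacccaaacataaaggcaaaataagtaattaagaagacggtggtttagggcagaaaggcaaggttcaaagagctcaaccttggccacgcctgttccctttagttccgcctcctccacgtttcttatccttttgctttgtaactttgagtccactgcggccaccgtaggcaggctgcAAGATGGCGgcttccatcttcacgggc
Mrpl37, chr4:107066817-107067116, minus strand: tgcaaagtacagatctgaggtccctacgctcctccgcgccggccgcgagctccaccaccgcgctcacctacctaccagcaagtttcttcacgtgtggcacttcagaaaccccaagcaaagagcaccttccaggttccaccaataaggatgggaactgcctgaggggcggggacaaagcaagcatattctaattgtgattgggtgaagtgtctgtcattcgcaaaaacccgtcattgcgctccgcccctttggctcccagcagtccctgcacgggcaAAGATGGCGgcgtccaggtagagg
Mrpl51, chr6:125191950-125192249, plus strand: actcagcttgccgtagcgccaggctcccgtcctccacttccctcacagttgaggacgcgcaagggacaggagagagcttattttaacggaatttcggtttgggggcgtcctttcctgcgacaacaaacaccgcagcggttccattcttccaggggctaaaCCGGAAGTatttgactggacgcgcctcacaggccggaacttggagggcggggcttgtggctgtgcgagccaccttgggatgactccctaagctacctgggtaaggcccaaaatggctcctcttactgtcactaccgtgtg

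Among the small-subunit genes that fell, Mrps15, the homologue of a bacterial protein that binds the small rRNA early in assembly, changed most. Mrps15 (ENSMUSG00000028861, chromosome 4, 126046925 to 126055532, plus strand, mm10) had 100.2, 91.8, 100.6 and 91.2 CPM in the WT and 56.8, 71.6, 73.2, 74.3 and 65.2 CPM in the DKO libraries. Every DKO library was below every WT library, with DKO 1 the lowest. The log2 difference was -0.49 ± 0.07 (SE), with an edgeR adjusted p of 4.48e-07. Mrps12, which lies at the decoding centre, had 154, 144, 151 and 153 CPM in the WT and 110, 122, 121, 124 and 104 CPM in the DKO libraries. Its groups did not overlap either, and its log2 difference was -0.38 ± 0.06 with an edgeR adjusted p of 1.84e-06. Mrps25, a protein found only in mitochondrial ribosomes, had 141, 129, 143 and 131 CPM in the WT and 93.0, 95.1, 106, 109 and 94.9 CPM in the DKO libraries. All 5 DKO libraries were lower, by -0.45 ± 0.06 on the log2 scale with an edgeR adjusted p of 1.26e-07. Of its 6576 exon bases, 4590 lie opposite exons of Nr2c2 (80.4 and 87.9 CPM), and the strand setting of the counting is not given, so the value of Mrps25 is uncertain.

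Mrps34, another protein without a bacterial counterpart, had 53.6, 55.7, 50.3 and 53.4 CPM in the WT and 39.9, 44.0, 46.5, 44.1 and 38.5 CPM in the DKO libraries. The groups did not overlap, and the log2 difference was -0.32 ± 0.08 with an edgeR adjusted p of 0.000732. Its exons share 37% of their bases with Nme3 on the same strand and 63.4% with Mapk8ip3 on the other, so reads there may be split or lost. Mrps11, the homologue of a protein of the platform of the small subunit, had 40.8, 40.6, 41.1 and 38.1 CPM in the WT and 39.3, 29.3, 34.3, 32.1 and 34.2 CPM in the DKO libraries. DKO 1 lay among the WT libraries and DKO 2 was the lowest. The log2 difference of -0.24 ± 0.09 (edgeR adjusted p 0.0204) was not called without DKO 2, with an adjusted p of 0.0729.

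Among the large-subunit genes that fell, Mrpl45, whose protein sits at the exit of the peptide tunnel and anchors the ribosome to the inner membrane, changed most. Mrpl45 (ENSMUSG00000018882, chromosome 11, 97315716 to 97329920, plus strand) had 185, 195, 193 and 183 CPM in the WT and 149, 136, 145, 149 and 136 CPM in the DKO libraries. The groups were well apart, with a log2 difference of -0.41 ± 0.05 and an edgeR adjusted p of 6.15e-08. Mrpl40, a protein without a bacterial counterpart, fell by 0.26 ± 0.07 on the log2 scale, with an edgeR adjusted p of 0.00347 and no overlap between groups. It had 67.5, 70.4, 68.3 and 73.6 CPM in the WT and 55.9, 55.8, 66.5, 62.4 and 52.1 CPM in the DKO libraries, of which DKO 3 came within about 1 CPM of the lowest WT library.

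The other large-subunit genes that fell included all 6 that have a bacterial homologue. These were 6 of the 30 tested Mrpl genes with one (20%), beside 3 of 18 without one (16.7%). Mrpl35 fell by 0.26 ± 0.06, Mrpl33 by 0.22 ± 0.08, Mrpl19 by 0.21 ± 0.07, Mrpl18 by 0.20 ± 0.06 and Mrpl24 by 0.19 ± 0.06 on the log2 scale (edgeR adjusted p from 0.000271 to 0.0270). Mrpl10, which holds the stalk that recruits translation factors, fell by 0.16 ± 0.05, and Mrpl37, without a homologue, fell by 0.18 ± 0.06. These 2 had no overlap between groups, with edgeR adjusted p-values of 0.0113 and 0.00998. Of the last 500 genomic bases of Mrpl24, 463 are exon bases that lie opposite exons of Rrnad1. For Mrpl19 these were 397 bases, opposite Gcfc2, and for Mrpl10 217, opposite Gm11574. The strand setting is not given, so the values of Mrpl24, Mrpl19 and Mrpl10 are uncertain too. The spread of Mrpl33 was wide: WT libraries had 157, 143, 174 and 137 CPM and DKO libraries 121, 134, 157, 118 and 127 CPM. DKO 3 reached the middle of the WT libraries. Mrpl33 was not called without WT 1, WT 3, DKO 1, DKO 4 or DKO 5, with adjusted p-values of 0.0721, 0.111, 0.0795, 0.0672 and 0.0578, and its log2 difference without WT 3 was -0.15. In 11 of the 75 members (14.7%) every DKO library was below every WT library, where 19.1% of all genes had it. These were 10 of the 14 members that fell and Mrpl43, which was not called (-0.08, edgeR adjusted p 0.231).

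**Figure D2:**
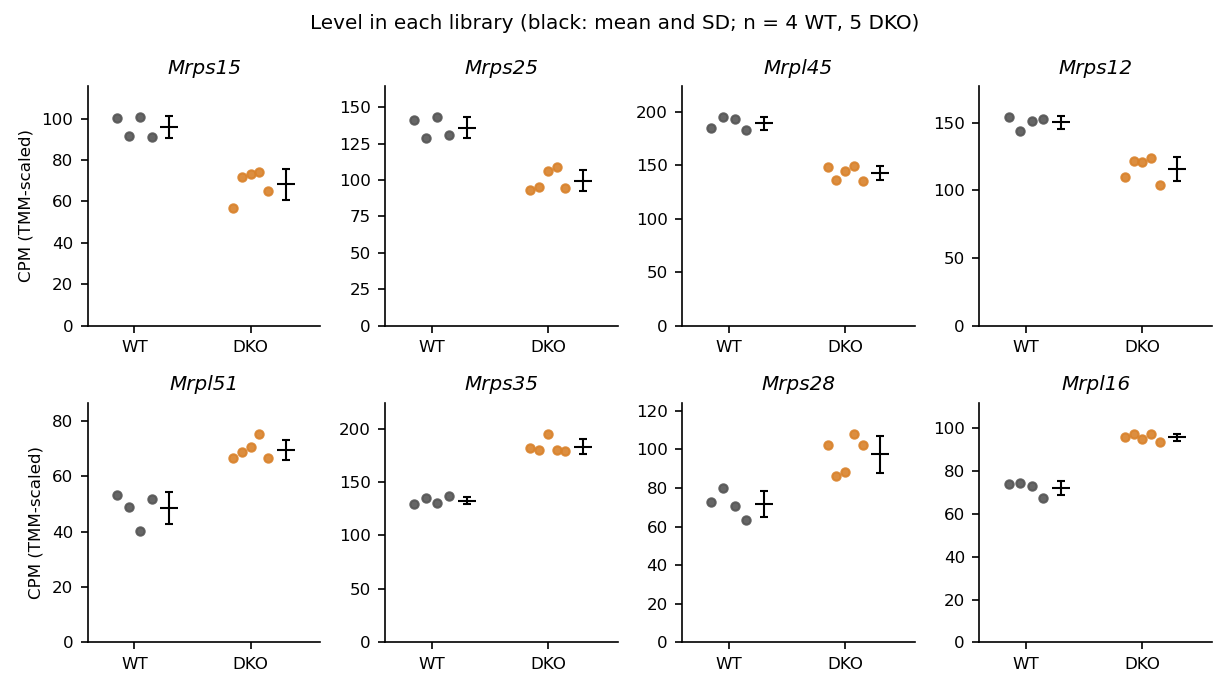
TMM-scaled CPM in every library, 1 panel per gene, for the 4 largest called falls (top row) and the 4 largest called rises (bottom row); grey points are the 4 WT and orange points the 5 DKO libraries, with black marks for mean and SD. The groups do not overlap in any of the 8 panels, and the differences stay under 1.5-fold.

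Among the large-subunit genes that rose, Mrpl51, a mitochondria-specific protein, changed most. Mrpl51 (ENSMUSG00000030335, chromosome 6, 125191801 to 125196269, plus strand) had 53.3, 48.8, 40.3 and 51.8 CPM in the WT and 66.7, 68.6, 70.6, 75.3 and 66.4 CPM in the DKO libraries. WT 3 was the lowest and the groups did not overlap, with a log2 difference of 0.52 ± 0.08 and an edgeR adjusted p of 9.33e-07. Mrpl16, the homologue of a protein beside the tRNA sites, had 74.1, 74.6, 73.0 and 67.3 CPM in the WT and 95.9, 97.5, 95.2, 97.2 and 93.4 CPM in the DKO libraries. Both groups were tight and well apart, by 0.41 ± 0.06 with an edgeR adjusted p of 8.99e-07. Mrpl58, a peptidyl-tRNA hydrolase that frees stalled ribosomes, had 59.4, 62.2, 60.2 and 59.2 CPM in the WT and 76.1, 76.0, 86.8, 72.4 and 75.4 CPM in the DKO libraries. The groups did not overlap and DKO 3 was the highest, with a log2 difference of 0.36 ± 0.07 and an edgeR adjusted p of 3.56e-05.

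Mrpl34, with a bacterial homologue, had 98.6, 89.96, 89.3 and 97.6 CPM in the WT and 128, 116, 126, 116 and 121 CPM in the DKO libraries. All DKO libraries were above all WT libraries, by 0.37 ± 0.06 with an edgeR adjusted p of 2.97e-06. Mrpl49, without one, rose least, from 64.6 to 73.9 CPM, by 0.19 ± 0.07 with an edgeR adjusted p of 0.0268. It was not called without WT 2, DKO 3 or DKO 4, with adjusted p-values of 0.114, 0.0822 and 0.0750.

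Of the small-subunit genes that rose, Mrps35, a mitochondria-specific protein, had 130, 135, 130 and 137 CPM in the WT and 182, 180, 195, 180 and 179 CPM in the DKO libraries. The groups were far apart, by 0.46 ± 0.05 with an edgeR adjusted p of 3.31e-09, the smallest of any member. Mrps28, whose protein is related to a bacterial small-subunit protein, had 72.9, 79.8, 70.4 and 63.5 CPM in the WT and 102, 86.3, 88.5, 108 and 102 CPM in the DKO libraries. The DKO libraries varied but all were higher, by 0.45 ± 0.07 with an edgeR adjusted p of 5.11e-06. Mrps14, the homologue of a protein of the head of the small subunit, had 76.4, 81.9, 68.6 and 81.8 CPM in the WT and 102, 100.4, 92.7, 93.8 and 104 CPM in the DKO libraries. Its groups did not overlap, with a log2 difference of 0.35 ± 0.06 and an edgeR adjusted p of 2.76e-05. Mrps31, a mitochondria-specific protein, rose by 0.26 ± 0.06 with an edgeR adjusted p of 0.000736. In 9 of 75 members every DKO library was above every WT library (12%), where 18.4% of all genes were. These were 8 of the 9 members that rose and Mrpl50, which was not called (0.16, edgeR adjusted p 0.0573).

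The 3 most abundant members, Mrpl12, Mrpl17 and Mrpl15, were not called. Mrpl12, the stalk protein that contacts translation factors, had 368, 388, 421 and 378 CPM in the WT and 317, 335, 390, 406 and 363 CPM in the DKO libraries. The groups overlapped, with a log2 difference of -0.10 ± 0.06 and an edgeR adjusted p of 0.168, and it was called without DKO 4 (-0.15, adjusted p 0.0395). Mrpl17, a neighbour of the tunnel exit, had 319, 347, 329 and 326 CPM in the WT and 343, 299, 347, 327 and 320 CPM in the DKO libraries, a log2 difference of -0.02 ± 0.05 (edgeR adjusted p 0.822). Its groups overlapped, with DKO 2 the lowest library. Mrpl15, Mrpl11 of the stalk base, Mrps2 and Mrps30, which is named for the small subunit but sits in the large one, had log2 differences of -0.08, -0.03, -0.11 and -0.10, each with an SE of 0.05 or 0.06. A p that misses the threshold does not show that these levels were equal.

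At the low end, Mrpl23, at the tunnel exit, had 1.35, 1.07, 1.32 and 2.27 CPM in the WT and 2.69, 0.940, 2.95, 4.05 and 2.67 CPM in the DKO libraries. DKO 2 was the lowest of all, and the log2 difference of 0.80 ± 0.35 had an edgeR adjusted p of 0.0584. The 3 members too low for the test were Mrpl53, Mrps18b and Mrps36. Mrpl53 had 0 counts in all 9 libraries, which allows up to 0.423 to 0.497 CPM in a library, and 695 of its 790 exon bases are shared on the same strand with Gm42688, so its value is uncertain. Mrps18b had 21 counts in all WT and 34 in all DKO libraries, and Mrps36 had 20 and 18. Mrps36 is now known as a subunit of a dehydrogenase complex of the citric acid cycle. The bacterial protein S18 has 3 mouse homologues: Mrps18a (42.9 and 39.3 CPM) and Mrps18c (29.9 and 31.4 CPM) were tested and not called, beside Mrps18b at the floor.

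Where a member lies in the genome went with its direction on chromosomes 6 and 8. These chromosomes were singled out because earlier results of these data shifted there, so agreement on them is a description and no independent finding. For each member the median log2 difference of up to 25 tested genes on each side was computed, leaving out other members. The 8 tested members there all had the sign of their neighbours, and 7 of the 8 were called. Of all genes tested, 5689 of 11893 (47.8%) were called, and 4813 of 10670 (45.1%) off these chromosomes. Calls were thus more frequent among all genes on these chromosomes too, so the count is not particular to the members. On chromosome 6, Mrps33 at 39801804 (-0.17 ± 0.18, not called), Mrpl35 at 71812997, Mrpl19 at 81957851 and Mrps25 at 92169525 had neighbour medians of -0.16, -0.12, -0.36 and -0.28. Further along the same chromosome, Mrpl51 at 125191801 and Mrps35 at 147042764 had neighbour medians of 0.35 and 0.47. The members of the first stretch were lower in the DKO libraries and those of the second higher. On chromosome 8, Mrps31 at 22411361 and Mrpl34 at 71464959 rose, with neighbour medians of 0.46 and 0.26. Klf2, a gene named in the DKO label, lies near Mrpl34, at 72319033 on the same chromosome. Whether this has a part in the value of Mrpl34 was not tested.

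Elsewhere the link was looser. Of the 67 tested members on other chromosomes 43 had the sign of their neighbours, and neighbour medians stayed between -0.22 and 0.21. The correlation of a member with its neighbours' median was 0.50 over all 75 (Pearson's r, a description over genes of the same 9 libraries), 0.92 over the 8 and 0.24 over the 67. Without the members on both chromosomes 16 of 67 were called (23.9%), against 45.1% of the 10670 genes off them, and the median stayed at -0.03. Mrps15, Mrpl45 and Mrps12, the largest falls off these chromosomes, had neighbour medians of -0.14, -0.20 and -0.06, and Mrps28 and Mrpl16, the largest rises, 0.08 and 0.07. Whether a change of chromosome number or structure has a part in these values was not tested.

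**Figure D3:**
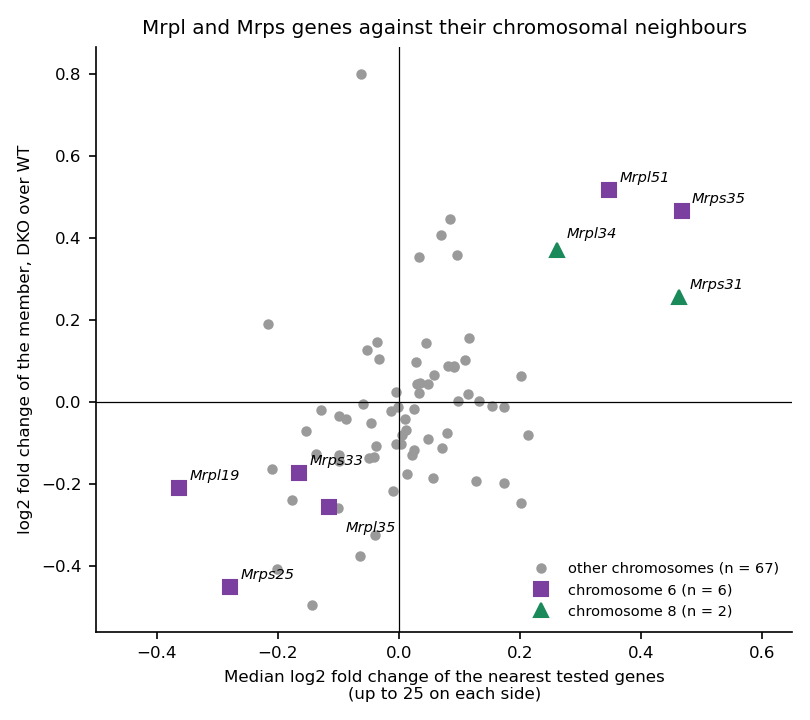
Log2 fold change of each of the 75 tested members (y axis) against the median log2 fold change of its nearest tested genes (x axis, up to 25 on each side); squares are chromosome 6, triangles chromosome 8 and grey circles the other chromosomes. The 8 members of chromosomes 6 and 8 lie at the lower left or the upper right; the 67 others lie between -0.22 and 0.21 on the x axis.

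The partners of these proteins were taken from lists of the same system. Of all 11893 genes tested, 23.9% were higher and 24% lower, the shares to set beside the counts of each list. Of 5 further mitoribosomal proteins without the name, 1 rose and 2 fell. Gadd45gip1 of the large subunit, on chromosome 8, went from 113 ± 1.37 to 70.4 ± 5.29 CPM (-0.68 ± 0.06, edgeR adjusted p 3.51e-11), a larger fall than that of any member. Ptcd3 of the small subunit, on chromosome 6, fell by 0.36 ± 0.08 (edgeR adjusted p 0.000322) and Chchd1 rose by 0.20 ± 0.05 (edgeR adjusted p 0.00128). Dap3 and Aurkaip1, at -0.10 and 0.03, were not called. Among 28 genes for assembly of the mitoribosome and modification of its rRNA, 3 rose (10.7%) and 10 fell (35.7%), with a median of -0.05. Grsf1, an RNA-binding protein of mitochondrial RNA granules, went from 410 ± 9.25 to 247 ± 13.7 CPM (-0.73 ± 0.05, edgeR adjusted p 7.57e-15). Ddx28, a helicase of the large subunit's assembly, on chromosome 8, was at -0.62. Mrm3, which methylates the large rRNA, was at -0.46 and Rbfa, a small-subunit assembly factor, at -0.39. Like Grsf1, these were lower in every DKO library, while Dhx30 (-0.04) and Fastkd2 (0.10) were not called. Gadd45gip1 and Ddx28 thus fell on chromosome 8, where the tested members rose.

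Among the factors of mitochondrial translation, 6.25% of those tested were higher and 12.5% lower, against 23.9% and 24% of all genes. Of 16 tested, 1 rose and 2 fell, with a median of -0.05: the release factor Mtrf1l by 0.63 ± 0.14, the initiation factor Mtif3 by -0.28 ± 0.11 and the elongation factor Tsfm by -0.28 ± 0.09 on the log2 scale (edgeR adjusted p 0.000394, 0.0285 and 0.00838). Lrpprc and Slirp, which stabilise mitochondrial mRNAs, were at -0.03 and 0.05 and not called. Of 22 tRNA synthetase and amidotransferase genes, 3 rose (13.6%) and 4 fell (18.2%), with a median of 0.08. Kars (-0.83) and Gars (-0.41) serve the cytosol as well as mitochondria and lie on chromosomes 8 and 6. Cars2 (0.59) on chromosome 8 rose and Sars2 (-0.45) fell. In the transcription and replication of mitochondrial DNA, 3 of 11 rose (27.3%) and 2 fell (18.2%). The single-stranded DNA-binding protein Ssbp1, on chromosome 6, fell from 123 ± 7.38 to 95.5 ± 7.75 CPM (-0.36 ± 0.06, edgeR adjusted p 1.05e-05), and the polymerase Polg was at -0.40. Tefm (0.46) and Mterf1a (0.65) rose, while Tfam (-0.08) and Twnk (-0.07) were not called. Of 9 regulators of mitochondrial biogenesis tested, 2 rose (22.2%) and 3 fell (33.3%). Mycn rose by 0.92 ± 0.07 and Gabpb1, a subunit of GABP, by 0.27 ± 0.09. The coactivators Ppargc1b (-0.87 ± 0.19) and Pprc1 (-0.32 ± 0.06) were among the falls. Yy1 (-0.06) and Gabpa (-0.09), whose motif letters were counted above, were not called. The value of Nrf1, whose motif core was also counted, is not given here.

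**Figure D4:**
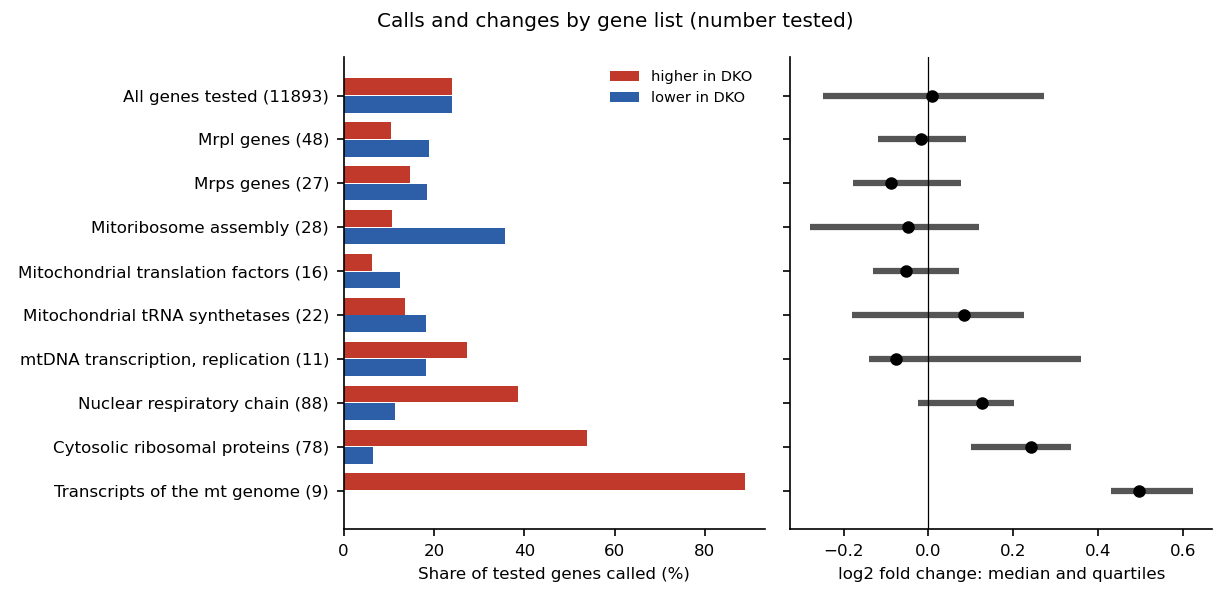
Left, share of tested genes called higher (red) or lower (blue) in the DKO libraries for each list, with the number tested in brackets; right, median (point) and quartiles (line) of log2 fold change. The quartile lines of the Mrpl and Mrps lists cross 0, as does that of the nuclear respiratory chain genes (median 0.13), while those of the mitochondrial transcripts and the cytosolic ribosomal proteins lie above it.

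The RNAs made from the mitochondrial genome, among them the rRNAs mt-Rnr1 and mt-Rnr2 of the mitochondrial ribosome, and the genes of the cytosolic ribosome stood beside the members with other counts. Of 9 tested transcripts of the mitochondrial genome, 8 rose, with a median log2 difference of 0.50 over the 9, and mt-Nd6 was not called (-0.39 ± 0.17, edgeR adjusted p 0.0563). The cytochrome b transcript mt-Cytb went from 754 ± 57.2 to 1205 ± 188 CPM (0.68 ± 0.12, edgeR adjusted p 0.00134) and the complex I transcript mt-Nd2 from 629 ± 41.2 to 1017 ± 151 CPM (0.69 ± 0.11, edgeR adjusted p 0.000425). Mitochondrial transcripts took 1.42% ± 0.102 (SD, n = 4) of counts in the WT and 2.04% ± 0.290 (SD, n = 5) in the DKO libraries, and whether this moved the members' values was not tested beyond their share of nuclear counts, 0.677% and 0.666%. Nuclear genes of the respiratory chain had 34 of 88 higher and 10 lower, with a median of 0.13, and cytosolic ribosomal protein genes had 42 of 78 higher and 5 lower, with a median of 0.24. The members had 9 of 75 higher and 14 lower, with a median of -0.03. Of all genes tested, 23.9% were higher and 24% lower. These lists and the difference between them and the members carry no test.

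**Figure D5:**
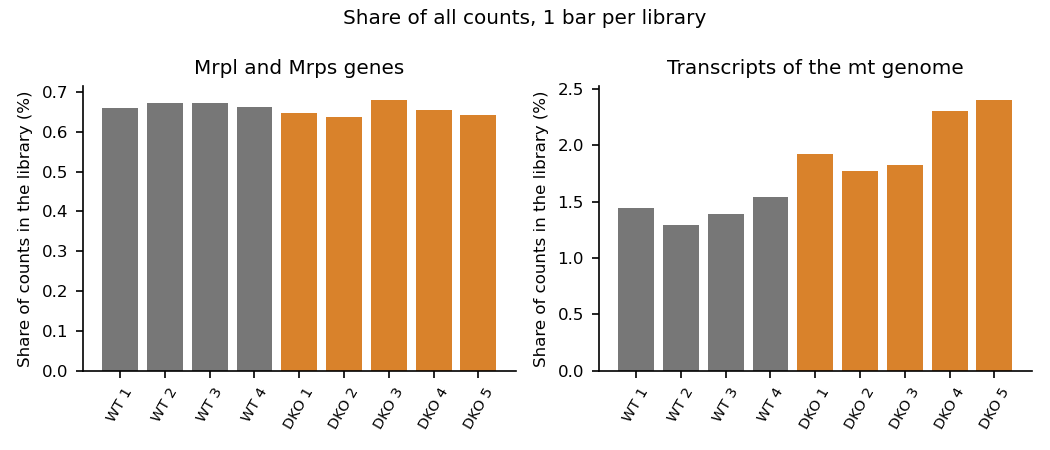
Share of all counts in each library (%, 1 bar per library, y axes from 0) held by the 78 Mrpl and Mrps genes (left) and by transcripts of the mitochondrial genome (right); grey is WT, orange is DKO. Members' shares stay between 0.638% and 0.681% and the groups overlap, while all 5 DKO bars on the right are above all 4 WT bars.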

How the data were processed

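Messenger RNA 3' ends were counted in 4 WT and 5 DKO libraries, made from 600 ng of total RNA with the QuantSeq 3' forward kit, per the labels' protocols. The authors deposited whole-number exon counts per gene, not normalized. The submitters' processing notes name mm10, cutadapt, STAR, featureCounts and DESeq2. The labels and notes do not state the annotation release, the strand setting or how multi-mapped reads were handled, so genes that share exon bases are uncertain: 8 members do so on the same strand and 28 on the opposite one. Of 52550 Ensembl identifiers, 52403 matched GENCODE mouse M21 (GRCm38) and 147 did not.

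All genes passing filterByExpr were fitted with edgeR 4.0.16 (TMM scaling, robust quasi-likelihood test, genotype label as the one term, R 4.3.3), and p-values were adjusted by Benjamini-Hochberg over all of them. Called means an adjusted p under 0.05. Library totals of 6035642 to 7098530 counts set the precision. The 16 pairs of libraries within a group differed by more than counting error (chi-square per degree of freedom 2.22 to 4.98), and each counted as 1 replicate. Alternatives were DESeq2 1.42.0, limma-voom (limma 3.58.1), other scalings and filters, a replicate block and leaving out each library. The script was tested on simulated data.

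The members and lists were chosen with earlier results of these data known. Members described are the 12 largest called rises and falls, the 6 most abundant not called, those not tested, those at the highest and lowest level, and those on chromosomes 6 and 8. From each list come up to 4 called genes of the smallest adjusted p and up to 2 of the most abundant not called. Mrpl10, Mrpl37 and the Mrps18 genes were added after their values were seen.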

Additional observations from a re-analysis of the deposited data

Results flagged for a closer look

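In 3 of 64 groups of values, a number near the 1 in 20 that chance gives, 1 library lay far from the rest of its group. Mrpl19 had 62.5 CPM in WT 2, where the other 3 WT libraries had 65.8 to 66.1 CPM. Mrpl58 had 86.8 CPM in DKO 3, where the other 4 DKO libraries had 72.4 to 76.1 CPM. Mrps35 had 195 CPM in DKO 3, where the other 4 had 179 to 182 CPM. Without DKO 3 both genes were still called higher.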

How the results depend on the processing

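Of the 23 called members, 20 were called under all 18 alternatives, and every called member kept its direction in them. Mrpl11 and Mrpl17, not called and near 0, changed sign, with log2 differences from -0.06 to 0.0008 and from -0.04 to 0.01. The count of called members stayed between 22 and 25, with 8 to 10 higher and 13 to 15 lower. DESeq2, limma-voom, upper-quartile factors, library totals, scaling on genes off chromosomes 6, 8, Y and MT, no filter and a filter of 5 CPM each called the same 23. With the replicate block over replicates 1 to 4, 24 members were called (9 higher and 15 lower), against 23 without the block in the same 8 libraries. With the block 5497 of all genes were called, against 5263 without it in those 8 libraries. Libraries of the same number had correlations of 0.006 to 0.076 in their deviations, and those of different numbers -0.064 to 0.053. The highest values, 0.076 each, were those of WT 1 with DKO 1 and WT 3 with DKO 3, while WT 2 went best with DKO 5 (0.053). These values are small and the numbers were not taken as pairs, but a weak link between libraries of the same number may exist. Over all genes, 4943 (filter of 5 CPM) to 6075 (no filter) were called, and scalings moved the median of all genes by less than 0.1. The 3 members that lost their call in some settings were Mrps11, Mrpl33 and Mrpl49, each when single libraries were left out. Leaving out the members on chromosomes 6 and 8, chosen after seeing the data, left 16 called. Depth limits Mrpl23, Mrpl53, Mrps18b and Mrps36, which had few counts or 0.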

Other observations

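Within 1000 bases of the start of 32 members, another protein-coding gene starts on the opposite strand, which gives 31 pairs, 1 of them of 2 members and counted once, and 28 with both genes tested. The genes of 18 of the 28 pairs had the same sign, and Pearson's r over pairs was 0.41, a description in which both genes share libraries and position. For comparison, 51 of the 75 tested members had the sign of their chromosomal neighbours' median, so the pairs were not set apart from position. In 2 pairs both genes were called, in the same direction in each. Mrps12 fell beside Sars2, the mitochondrial seryl-tRNA synthetase, whose start lies 172 bases away and which went from 13.7 to 9.99 CPM (-0.45 ± 0.16, edgeR adjusted p 0.0187). Mrpl51 rose beside Ncapd2, a condensin subunit, whose start lies 100 bases away and which went from 410 to 539 CPM (0.39 ± 0.05, edgeR adjusted p 6.02e-09). That pair lies on chromosome 6, where Mrpl51 had a neighbour median of 0.35. Mrps11 fell while Mrpl46, the member that starts 412 bases away, had 47.3 and 49.4 CPM and was not called (0.06 ± 0.07, edgeR adjusted p 0.503). These pairs were looked at after the values of the members were known.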
